A study of Solanum lycopersicum with 12 samples.

Results

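Among the 34075 genes counted in tomato leaves, 75 had a higher CPM (a gene's counts per 1000000 counts of the library) in every library from plants that had received ultrasound than in any library from plants that had not. These genes were chosen by the measured values themselves: the lowest CPM in the 6 ultrasound libraries had to exceed the highest CPM in the other 6, and the mean CPM in the ultrasound libraries had to be at least 1. They were ranked by the log2 ratio of the means of the 6 and the other 6 libraries, with 0.1 CPM added to each mean, and all were kept because fewer than 100 qualified. The difference between the ultrasound libraries and the others is therefore what selected the genes. It is given below as a description, including where a fit of the same contrast is quoted, and nothing is read from it. Of the 18917 genes with a mean of at least 1 CPM in the ultrasound libraries, the 75 are 0.396%. The mirror-image rule, i.e., every ultrasound library below every other library, was met by 62 of 19074 genes (0.325%).

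The plants were three-week-old tomatoes (Solanum lycopersicum cv. Micro Tom, a dwarf cultivar), and each of the 12 mRNA-seq libraries was made from leaves sampled 48 h after the stimuli. The 4 groups had 3 libraries each, labelled as biological replicates. C was the untreated control. US plants were exposed to ultrasound through the air for 5 min at 30 kHz and 120 W from a distance of 6 cm, D plants received 10 ml of a 20% polyethylene glycol 6000 (PEG) solution, which withholds water from the roots and so imitates drought, and US + D plants received the same PEG solution immediately after the same ultrasound. C and D are thus the groups without ultrasound, and the study as a whole was about whether plants keep a short-term memory of the stimuli, given alone or combined. The ITAG descriptions used here, which name a gene by its best match to a known protein, came from the study's lists of changed genes, and those of the members all from its lists for these same libraries. They covered 55 of the 75 genes, and the other 20 are given by identifier only.

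Plant cells sense pressure and vibration largely at the cell wall and the plasma membrane, where wall-monitoring receptor kinases, ion channels and calcium and inositol phosphate signals operate. Growth of the leaf cell depends on enzymes and proteins that loosen, cut and rebuild the wall, on cellulose synthesis at the membrane, and on the microtubules that guide it. Auxin and light are among the signals that control this growth. In bulk leaves, more RNA per cell and more cells of a type that carries the RNA cannot be told apart.

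Total counts per library were between 33640280 and 106829565. C replicates 2 and 3 and US + D replicate 3 were the deepest, and the medians of the ultrasound and other libraries were 40288365 and 43293043 counts. As a check of the tissue, the 3 Rubisco small subunit genes examined, which mark green leaf, had between 312 and 13791 CPM in all 12 libraries. TAGL1, a gene of flowers and fruits, had between 0.0562 and 27.1 CPM in C and between 0.0483 and 8.83 CPM in the other groups, and the part of such material in the differences described here was not tested. Counts covered the whole span of each gene model, introns included.

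The log2 ratio of the 75 genes ran from 0.35 to 3.62 with a median of 1.001. It was at least 1 for 38 genes and at least 2 for 8. The gap between the groups was narrow for most genes. The CPM of the lowest ultrasound library was a median of 1.105 times that of the highest other library, at least 1.5 times for 10 genes and at least 2 times for 3. For 37 genes the exact 95% Poisson intervals of these 2 libraries, which cover counting error only, did not meet, while for 38 they did. Mean values in the ultrasound libraries spanned 1.03 to 367 CPM (median 39.9), and 17 genes had at least 100 CPM.

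**Figure D1:**
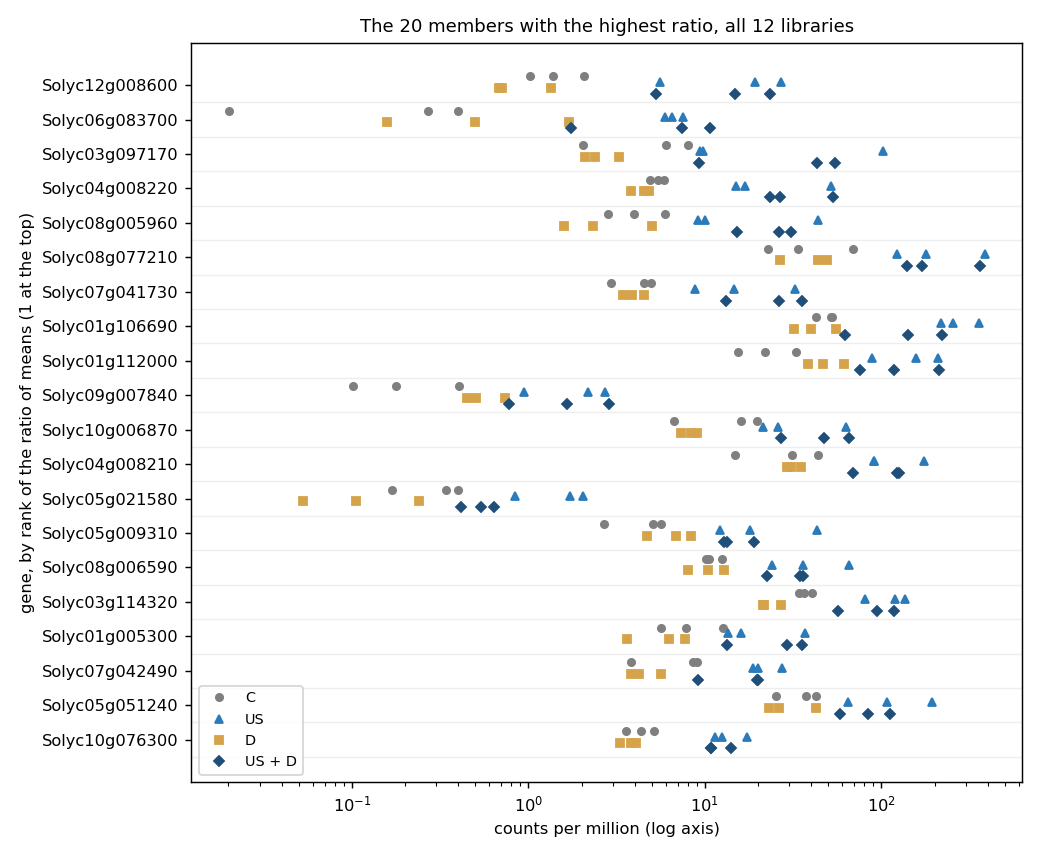
The 20 members with the highest ratio of means, 1 gene per line, with CPM on a log axis. Each symbol is 1 library of C, US, D or US + D, and in every line the 6 ultrasound libraries lie to the right of the other 6, by a wide gap in Solyc12g008600 (5.27 against 2.07 CPM) and almost none in Solyc06g083700 (1.73 against 1.70 CPM).

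The gene at the top of the ranking was Solyc12g008600.2.1 (chromosome 12, 2046436 to 2050083 in SL4.0), described as a DUF1005 family protein, i.e., a plant protein family of unknown function. It had 1.38, 2.07 and 1.02 CPM in C, 0.712, 0.686 and 1.34 in D, 5.57, 19.3 and 26.8 in US and 14.9, 23.3 and 5.27 in US + D. No ultrasound library came near the other libraries, since the lowest was 2.55 times as high as the highest of those. A second DUF1005 gene, Solyc01g106690.3.1 (chromosome 1, 86770339 to 86772178), ranked eighth and had a higher level per length, 114 against 4.35 CPM per kilobase of span in the ultrasound libraries. Its CPM was 42.4, 52.4 and 51.6 in C and 39.9, 32.0 and 55.1 in D, against 216, 255 and 359 in US and 222, 141 and 62.4 in US + D. In this gene all US libraries were high, whereas US + D replicate 3 was only 1.13 times the highest D library.

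Several of the described genes encode proteins of the cell wall, the cell surface and the cytoskeleton. The 8 genes of this group, formed after the values were seen, had log2 ratios from 0.44 to 2.60, and 5 reached 1. The one with the highest ratio, Solyc08g005960.2.1 (chromosome 8, 740534 to 740944), encodes a small bifunctional inhibitor/lipid-transfer protein, a class of secreted proteins that bind lipids at the wall and cuticle. Its CPM was 5.98, 2.81 and 3.98 in C and 2.32, 1.58 and 5.01 in D, and 9.08, 9.97 and 43.4 in US and 15.2, 30.6 and 26.2 in US + D. Thus the lowest ultrasound library was 1.52 times the highest of the rest, and US replicate 3 stood well above the other US libraries.

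Expansins loosen the wall of growing cells, and the expansin-like gene Solyc01g112000.4.1 (chromosome 1, 90487762 to 90489626) was among the members. It had 15.3, 22.0 and 33.0 CPM in C and 46.4, 38.3 and 61.8 in D. With ultrasound it had 88.4, 156 and 209 CPM in US and 213, 118 and 76.0 in US + D, so that no groups with and without ultrasound overlapped, and the D libraries all lay above the C libraries. Its log2 ratio was 2.69 for US vs. C and 1.47 for US + D vs. D. The CASP-like gene Solyc10g076300.2.1 (chromosome 10, 58319369 to 58320812), from a family of membrane proteins related to those that build the Casparian strip in Arabidopsis roots, had a clear gap and little spread within the groups. It had 5.13, 3.59 and 4.35 CPM in C, 4.09, 3.30 and 3.81 in D, 11.5, 12.5 and 17.3 in US and 10.8, 14.0 and 10.8 in US + D. Both of its log2 ratios were 1.64.

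Cel3 (Solyc01g102580.3.1; chromosome 1, 83630693 to 83634303) encodes an endo-1,4-beta-glucanase, an enzyme that cuts glucan chains of the wall. Its CPM was 85.5, 108 and 91.6 in C, 55.8, 60.0 and 64.6 in D, 134, 199 and 215 in US and 189, 266 and 136 in US + D. The D libraries were the lowest of all, and the log2 ratio was larger for US + D vs. D (1.71) than for US vs. C (0.94). Cellulose synthase (Solyc04g071650.4.1), the membrane enzyme that spins cellulose, had 107 to 146 CPM without and 174 to 314 CPM with ultrasound. The beta-tubulin gene Solyc04g081490.3.1, which encodes a building block of microtubules, had the highest mean CPM of the 75 genes, not corrected for length, 367 with and 202 without ultrasound. Its libraries nearly met, with 273 CPM in US + D replicate 3 and 262 CPM in C replicate 1. A hydroxyproline-rich glycoprotein gene (Solyc02g063420.3.1), from a class of structural wall proteins, and a beta-D-xylosidase gene (Solyc02g091680.4.1), for an enzyme that removes xylose from wall polymers, had log2 ratios of 1.54 and 0.44.

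Signalling components formed another group of 8 genes with log2 ratios from 1.001 to 2.47. All reached 1, although the gap was beyond counting error in only 3. Inositol-1,4,5-triphosphate-5-phosphatase 1 (Solyc08g077210.4.1; chromosome 8, 59220304 to 59223875), an enzyme that removes the calcium-releasing messenger inositol triphosphate, had 33.7, 22.6 and 69.2 CPM in C and 48.9, 26.6 and 43.6 in D. It had 123, 178 and 384 CPM in US and 361, 139 and 169 in US + D. Every ultrasound library was at least 1.78 times the highest other library, and the log2 ratios of 2.45 (US vs. C) and 2.49 (US + D vs. D) were nearly equal. A MOB kinase activator (Solyc07g041730.4.1; chromosome 7, 53882160 to 53885730), from a family of co-activators of NDR kinases known from yeast and animals, had 2.95 to 4.97 CPM without ultrasound. With ultrasound it had 8.78, 14.6 and 32.3 CPM in US and 26.4, 35.3 and 13.2 in US + D, again without overlap.

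A receptor-like kinase described as THESEUS 1 (Solyc10g006870.1.1; chromosome 10, 1182199 to 1184721), which in Arabidopsis monitors the state of the cell wall, had 16.0, 19.8 and 6.67 CPM in C and 7.30, 9.02 and 8.36 in D. Its CPM was 21.3, 26.1 and 62.8 in US and 47.1, 65.3 and 26.9 in US + D. Here the D libraries were tightly low, while C replicate 2 almost reached US replicate 1. TMK4 (Solyc12g098570.2.1), a receptor-like kinase that takes part in auxin signalling in Arabidopsis, was separated more clearly, with 11 to 18.8 CPM without and 29.0 to 59.8 CPM with ultrasound. Its log2 ratio was 1.25 for US vs. C and 1.88 for US + D vs. D. The genes Solyc07g063480.3.1 and Solyc12g088750.2.1, both described only by a protein kinase domain, had log2 ratios of 1.60 and 1.001.

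The channel gene CNGC15 (Solyc09g007840.3.1; chromosome 9, 1393399 to 1396588), which belongs to the cyclic nucleotide-gated channels that carry calcium, was expressed weakly. It had 0.178, 0.403 and 0.101 CPM in C, 0.448, 0.739 and 0.503 in D, 2.19, 0.941 and 2.72 in US and 0.773, 2.86 and 1.66 in US + D. US + D replicate 1 and D replicate 2 differed by less than their counting error, and with libraries scaled by the TMM or the RLE method this gene no longer met the rule. The same holds for Solyc05g021580.3.1 (chromosome 5, 28150431 to 28151250), described as the kinase TOR although its span of 820 bases is short for that large protein. Its CPM was 0.416 to 2.03 with and 0.0527 to 0.401 without ultrasound, and its mean of 1.03 CPM was the closest to the minimum of 1.

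A further 4 genes encode oxidative enzymes or an auxin-related protein. The flavin-containing monooxygenase gene Solyc06g083700.4.1 (chromosome 6, 46610867 to 46612634), from a family that in Arabidopsis includes the YUCCA enzymes of auxin synthesis, had 0.401, 0.271 and 0.0202 CPM in C, 0.501, 0.158 and 1.70 in D, 5.92, 6.47 and 7.53 in US and 10.7, 7.43 and 1.73 in US + D. C was low and the US libraries were close to each other, but US + D replicate 3 and D replicate 3 almost coincided. Without D replicate 3, the log2 ratio rose from 3.47 to 4.18. In libraries thinned to 1 depth the gene no longer met the rule. A small auxin-up RNA gene, Solyc07g042490.1.1 (chromosome 7, 55534536 to 55534928), from a family of short, rapidly auxin-induced transcripts, had 3.80 to 9.04 CPM without and 9.13 to 27.3 CPM with ultrasound, and it too dropped out in thinned libraries. Sterol 22-desaturase (Solyc02g070580.1.1), a cytochrome P450 that makes stigmasterol, had log2 ratios of 1.36 (US vs. C) and 1.71 (US + D vs. D). A gene described only as cytochrome P450 (Solyc02g084570.4.1) had 1.15 and 0.54.

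Regulators of transcription, light responses and chromatin made up 10 genes, with log2 ratios from 0.68 to 2.65. OBERON (Solyc04g008220.4.1; chromosome 4, 1928018 to 1931555), a PHD-finger protein needed for meristems in Arabidopsis, led them with 4.88, 5.86 and 5.40 CPM in C and 4.53, 4.80 and 3.83 in D. It had 14.9, 16.9 and 51.9 CPM in US and 23.4, 53.0 and 26.6 in US + D. This was one of the 3 genes in which every ultrasound library had at least 2 times the CPM of any other library (2.55 times). CONSTANS-LIKE 7 (Solyc05g009310.3.1; chromosome 5, 3490063 to 3492184), a zinc finger protein of the CONSTANS family of light and day-length regulators, had 5.06, 2.67 and 5.63 CPM in C, 4.72, 6.83 and 8.38 in D, 18.0, 43.0 and 12.2 in US and 18.9, 12.9 and 13.4 in US + D. Its log2 ratio was 2.43 for US vs. C and 1.17 for US + D vs. D, and US replicate 2 carried the highest value.

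Adagio-like 1 (Solyc01g005300.4.1; chromosome 1, 230694 to 235767), a relative of the Arabidopsis blue-light receptors that pace the circadian clock, had 3.61 to 12.7 CPM without and 13.3 to 36.7 CPM with ultrasound. It is the only member whose span overlaps another gene model, Solyc01g005310.3.1 on the opposite strand, so that reads of both cannot be told apart where counting ignored strand. COP1-interacting protein 7 (Solyc02g078670.3.1), a partner of the light-signalling repressor COP1 in Arabidopsis, had 56.4 to 70.4 and 90.6 to 167 CPM. A second COP1-interacting protein-like gene (Solyc12g049520.2.1) and a B-box zinc finger gene (Solyc07g062160.3.1) had log2 ratios of 0.85 and 0.68. The transcription factors bHLH062 (Solyc09g097870.4.1), indeterminate-domain 7 (Solyc03g121660.3.1), LOB domain-containing 38 (Solyc02g092550.3.1) and the Dof factor PBF (Solyc06g150130.1.1) followed with 1.17, 1.05, 0.73 and 0.72.

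Genes described by protein turnover, wounding, disease or dehydration numbered 7, with log2 ratios from 0.53 to 1.76. ENHANCED DISEASE RESISTANCE 2-like (Solyc08g006590.2.1; chromosome 8, 1196263 to 1197087), whose Arabidopsis relative restrains defence against powdery mildew, had 8.07 to 12.8 CPM without ultrasound. It had 24.0, 36.2 and 65.7 CPM in US and 34.5, 35.9 and 22.6 in US + D, with the lowest of these 1.76 times the highest other value. The aspartic proteinase PCS1 (Solyc05g051240.1.1; chromosome 5, 60915965 to 60917308), linked to cell survival in Arabidopsis, had 23.2 to 42.7 and 58.5 to 193 CPM. Wound-induced protein 1 (Solyc06g048820.1.1) had 29.3 to 68.4 and 71.4 to 176 CPM, and per kilobase of its short span its mean level of 369.6 CPM in the ultrasound libraries was the highest of the 75. The F-box protein PP2-A15 (Solyc08g080360.3.1), from the family that marks proteins for breakdown, and a patatin (Solyc05g056030.3.1), a lipid acyl hydrolase, had log2 ratios of 1.23 and 0.94, and an S9 peptidase gene (Solyc01g108620.3.1) had 0.53.

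Of the remaining described genes, Solyc03g097170.3.1 (chromosome 3, 54067725 to 54071202), with an NAD(P)-binding Rossmann fold typical of dehydrogenases and reductases, followed at rank 3. Its CPM was 2.03, 5.99 and 7.99 in C, 3.24, 2.37 and 2.08 in D, 9.80, 9.34 and 103 in US and 43.3, 54.8 and 9.21 in US + D. The other US libraries and US + D replicate 3 lay just above C, and without US replicate 3 the log2 ratio fell from 3.24 to 2.65. ETAG-A3 (Solyc04g008210.2.1) had 14.9 to 43.6 CPM without and 69.2 to 174 CPM with ultrasound, and a tetratricopeptide repeat gene (Solyc03g114320.4.1) had 21.4 to 40.2 and 56.6 to 135 CPM. Both are separated by more than counting error. A heavy metal-associated isoprenylated protein gene (Solyc01g098760.4.1), from a family of metal-binding proteins, was among the 10 members with the highest mean CPM, with 99.1 to 145 CPM without and 162 to 292 CPM with ultrasound. A ribosomal protein L34 gene (Solyc01g102310.3.1), for a part of the large ribosomal subunit, had 22.4 to 31.6 and 45.6 to 117 CPM, and a methyltransferase gene (Solyc03g111620.1.1) had 3.03 to 4.29 and 6.38 to 12.5 CPM, again with gaps beyond counting error. A gene of the major facilitator superfamily, which holds many membrane transporters, (Solyc04g079520.3.1) had 4.04 to 6.96 and 9.75 to 17.8 CPM. The members Solyc01g103200.4.1 and Solyc03g082540.4.1, with log2 ratios of 1.57 and 0.48, share the description plasminogen activator inhibitor, a name from animals. Lower still in the ranking were genes described by a DUF688 domain (Solyc07g055140.3.1, 1.01), a pentatricopeptide repeat (Solyc10g005090.3.1, 0.81), a SNARE-associated Golgi protein (Solyc08g079670.3.1, 0.76) and a further Rossmann fold (Solyc07g024000.3.1, 0.60).

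The 20 genes without a description had lower ratios, from 0.35 to 1.33 with a median of 0.49, and 2 of them reached 1. These were Solyc12g088820.2.1 (6.73 to 19.5 CPM without and 19.7 to 57.4 CPM with ultrasound) and Solyc01g005720.3.1 (2.04 to 3.50 and 4.42 to 10.4 CPM). Of the undescribed genes, Solyc03g044150.4.1 (104 to 159 and 164 to 242 CPM), Solyc04g007210.3.1 (86.2 to 162 and 165 to 199 CPM) and Solyc02g065765.1.1 (101 to 141 and 151 to 186 CPM) were among the 10 members with the highest mean CPM. Their libraries of the groups with and without ultrasound lay close together, and the gap was beyond counting error in only 4 of the 20. Since the members with a description were all listed as changed in these libraries, nothing is read from this. Most genes of the lists examined by description were not members, beside 0.396% members among all genes with a mean of at least 1 CPM. Of the list genes with that mean, 1 of 2 expansins, 1 of 3 small auxin-up RNAs and 2 of 35 receptor kinases qualified. So did 1 of 15 cuticle and lipid transfer genes, 1 of 8 cytochromes P450 and 1 of 15 F-box genes. The other 16 lists, whose sizes here include genes under that mean, held no member. They were 5 xyloglucan endotransglucosylases, 3 EXORDIUM genes, 5 pectin enzymes, 2 calmodulins and calcium sensors, 2 gibberellin oxidases, 1 brassinosteroid gene, 3 jasmonate genes, 6 ethylene response factors, 2 WRKY factors, 10 proteinase inhibitors, 5 heat shock proteins, 8 glycosyltransferases, 6 peroxidases, 2 histones and cyclins, 25 genes described by the word transporter and 140 by the word unknown.

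**Figure D2:**
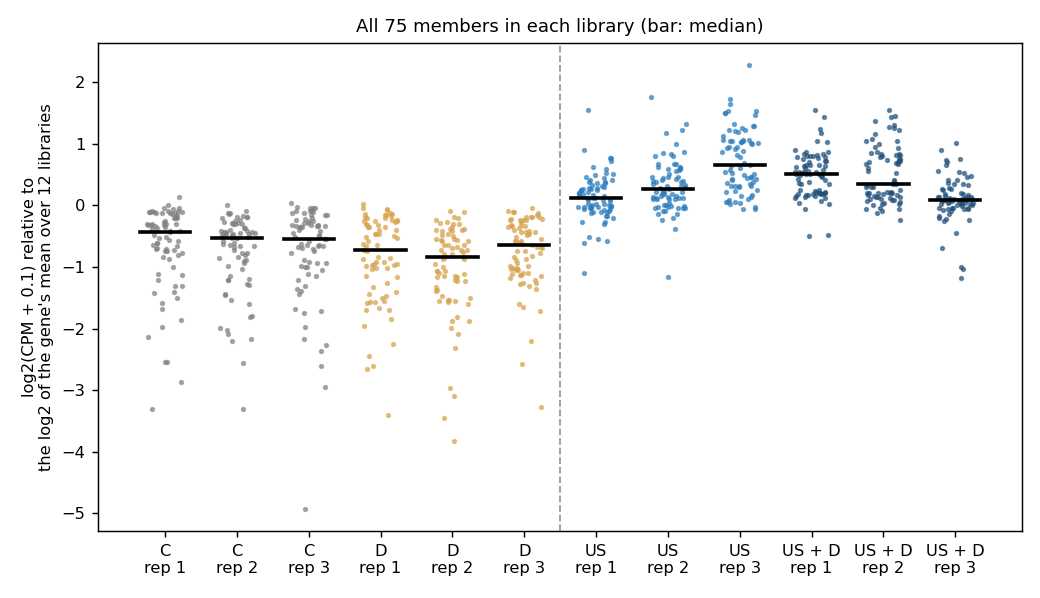
Level of all 75 members in each of the 12 libraries, as log2 of CPM plus 0.1 relative to the gene's mean over the libraries, 1 point per gene, with the median as a bar. The medians of the ultrasound libraries ran from 0.09 in US + D replicate 3 to 0.66 in US replicate 3, and those of the other libraries from -0.84 in D replicate 2 to -0.43 in C replicate 1.

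The ultrasound libraries were not equally high. US replicate 3 held the highest of the 6 ultrasound values for 32 genes and US + D replicate 2 for 20, whereas US replicate 1 did so for 1. The lowest ultrasound value came from US + D replicate 3 for 26 genes and from US replicate 1 for 23. On the other side, C replicate 1 held the highest value for 27 genes and D replicate 2 the lowest for 27. US + D replicate 3 was also the deepest of the ultrasound libraries and D replicate 2 the shallowest of the others, and their part in these differences was not tested. Summed over the 75 genes, CPM was 3941 to 6306 in the ultrasound libraries and 2119 to 2653 in the others.

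The rule demanded that the ultrasound groups be high but not that they be equally high. The log2 ratio of US vs. C had a median of 0.97 over the 75 genes and that of US + D vs. D a median of 1.17, with ranges of 0.19 to 4.35 and 0.34 to 3.85. The ratio was larger in the groups with drought (US + D vs. D) in 48 genes and larger without it (US vs. C) in 27. These counts are a description only. THESEUS 1 (1.37 and 2.48), Adagio-like 1 (1.33 and 2.14) and the ERD family gene Solyc02g081030.4.1 (0.28 and 1.25) were among the former. The monooxygenase (4.35 and 2.92), the expansin-like gene (2.69 and 1.47) and CONSTANS-LIKE 7 (2.43 and 1.17) were among the latter. The counts of 48 and 27 used plain CPM. By that measure the median over all genes was -0.07 for US vs. C and 0.04 for US + D vs. D. In edgeR with TMM scaling, the ratio was larger with drought in 41 members and smaller in 34. Over all tested genes it was smaller with drought in 45.85%, so the members were split much as all genes were.

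**Figure D3:**
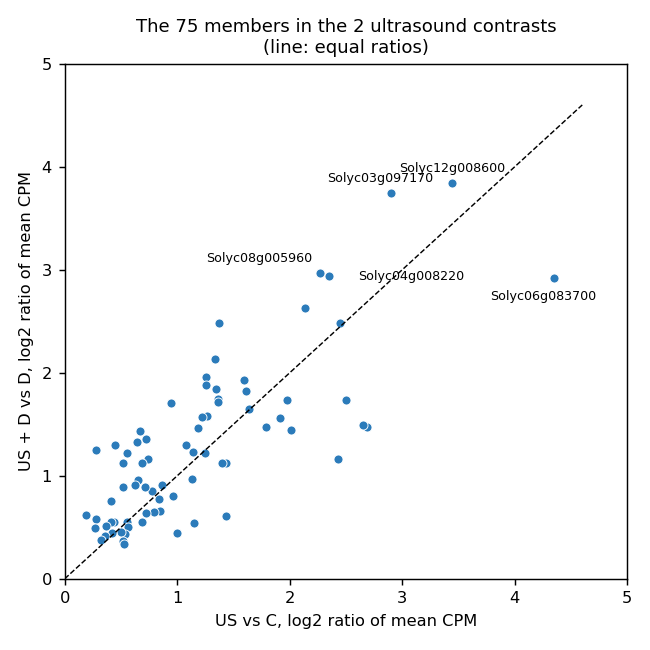
Log2 ratio of mean CPM for US vs. C (horizontal) and for US + D vs. D (vertical), 1 point for each of the 75 members, with a dashed line of equal ratios. Points above the line are the 48 genes with the larger ratio in the groups with drought, and Solyc06g083700 lies farthest to the right at 4.35.

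Whether drought moved these genes was tested with edgeR's quasi-likelihood method over all 22157 genes with enough counts, with Benjamini-Hochberg adjustment. A gene was called where its adjusted p was below 0.05 and its log2 fold change larger than 0.58 in size. All 75 members were tested. The rule set no order between C and D, nor between US and US + D, but it bounded each pair from one side. For D vs. C, 1 gene was called in all (0.00451%) and no member was. With the replicate number as a block, 2 genes (0.00903%) and no member were called. At an unadjusted p under 0.05, 4 members (1 higher and 3 lower in D) passed, against 11.1% of all tested genes. DESeq2 called 426 of 27483 genes (1.55%) and no member, with 6 members at an unadjusted p under 0.05 against 11.5% of all genes. The median log2 fold change of the members was -0.03, beside -0.05 over all tested genes. The mean CPM of D was below that of C in 54 members by plain CPM and in 41 after TMM scaling, beside 65.0% and 53.9% of all genes, so that the direction of small differences depended on the scaling.

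The members with an unadjusted p under 0.05 for D vs. C were the expansin-like gene, which had 23.4 ± 8.93 CPM (SD, n = 3) in C and 48.8 ± 11.9 in D (log2 fold change 1.16, SE 0.41, edgeR adjusted p = 0.377), and 3 genes with lower values in D. Of these, Solyc02g081030.4.1 had 68.5 ± 2.68 CPM in C and 44.0 ± 1.92 in D (log2 fold change -0.54, SE 0.16, edgeR adjusted p = 0.294). The others were Solyc01g103200.4.1 (-0.60, SE 0.22), which is described as a plasminogen activator inhibitor, and the protein kinase gene Solyc12g088750.2.1 (-0.67, SE 0.28). None passed the adjusted threshold.

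Adding drought to ultrasound (US + D vs. US) gave no call among all genes in edgeR (0%), and 11 of 27483 in DESeq2 (0.0400%), none of them a member. At an unadjusted p under 0.05, 4 members passed in edgeR, 2 in each direction, against 3.37% of all genes, and 5 passed in DESeq2 against 3.98%. The PEX14 gene Solyc03g114330.3.1, for a protein of the peroxisomal import machinery, had 27.1 ± 4.48 CPM in US and 41.1 ± 4.19 in US + D (log2 fold change 0.64, SE 0.22, edgeR adjusted p = 0.9998). The DUF1005 gene Solyc01g106690.3.1 had 277 ± 73.6 CPM in US and 142 ± 79.6 in US + D (log2 fold change -0.97, SE 0.38, adjusted p = 0.9998). Without US replicate 3, the number of members at an unadjusted p under 0.05 rose from 4 to 12, of which 10 were higher in US + D. The share over all genes was 4.06%, and no gene, member or not, was called in this setting. With any other single library left out, 2 to 5 members passed. The direction varied too: 59 of the 75 were higher in US + D without US replicate 3, and 52 were lower without US + D replicate 2. Over all genes, 50.2% and 52.9% were lower in these settings. Both libraries had helped to choose the members. US replicate 3 held the highest ultrasound value for 32 of them and US + D replicate 2 for 20. Nothing about the members is therefore read from the changes when either is left out.

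**Figure D4:**
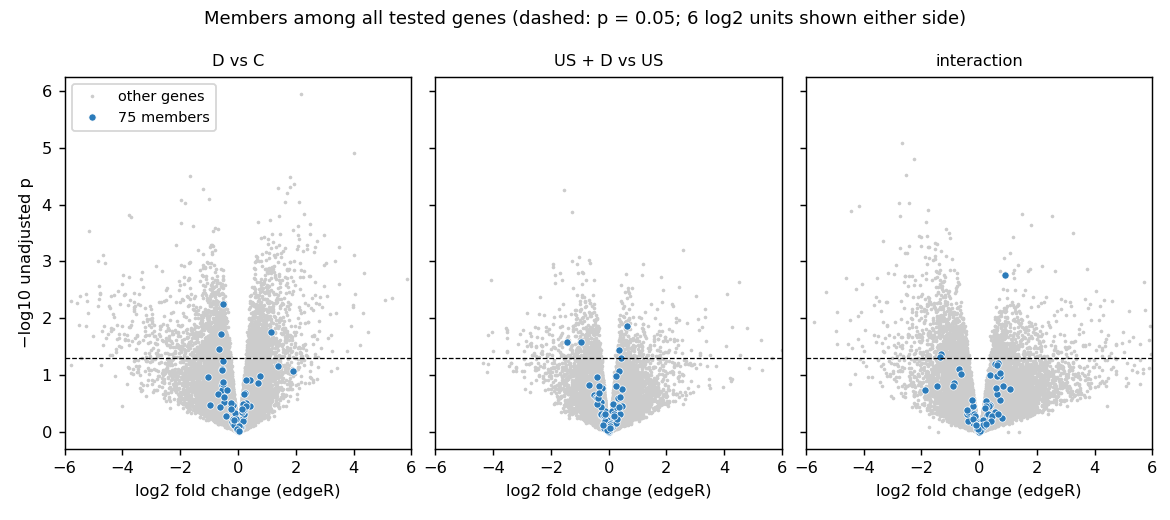
Log2 fold change (horizontal) and −log10 of the unadjusted edgeR p (vertical) for D vs. C, US + D vs. US and their interaction, with the 75 members over all other tested genes and a dashed line at the unadjusted threshold of 0.05. The members lie within the cloud of all genes, with 4, 4 and 3 of them above the line.

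The interaction asks whether the difference made by ultrasound depended on drought. edgeR called no gene (0%), and 3 members had an unadjusted p under 0.05, 1 positive and 2 negative, against 6.42% of all genes. DESeq2 called 106 of 27483 genes (0.386%), 1 of them a member, with 4 members at an unadjusted p under 0.05 against 7.07% of all genes. Without US replicate 3, edgeR had 11 members at an unadjusted p under 0.05, 10 of them positive, against 6.18% of all genes, and called no gene, member or not. That library had helped to choose the members, so nothing is read from this number either. With any other single library left out, 1 to 5 members passed. The member called by DESeq2 was Solyc02g081030.4.1 (chromosome 2, 43070446 to 43082746), described as an ERD (early-responsive to dehydration stress) family protein, a family named for genes that drought induces early in Arabidopsis. It had 66.0, 68.2 and 71.3 CPM in C, 97.5, 73.2 and 78.1 in US, 45.1, 41.8 and 45.2 in D and 105, 84.8 and 126 in US + D. All D libraries were below all C libraries, and all US + D libraries were at least as high as the middle US library. The interaction was 0.92 on the log2 scale (SE 0.23, adjusted p = 0.0247) in DESeq2 and 0.91 (SE 0.22, adjusted p = 0.546) in edgeR, and the edgeR settings tried gave adjusted p up to 0.949. The expansin-like gene (-1.32, SE 0.58) and CONSTANS-LIKE 7 (-1.36, SE 0.61) had the opposite sign, with edgeR adjusted p of 0.757 and 0.777.

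Whether a gene chosen in this way stays high in plants that had no part in choosing it was examined by leaving out the 4 libraries of 1 replicate number in turn, applying the rule to the other 8, and reading the 100 top genes in those left out. Of the 100 genes chosen without the replicates numbered 1, 62 had both left-out ultrasound libraries above both others, against 18.3% of all genes with a mean of at least 1 CPM. Without the replicates numbered 2 it was 57 of 100 against 8.09%, and without those numbered 3 it was 47 of 100 against 12.7%, with 2 more genes in the reverse order. In the left-out libraries the median log2 ratio of the chosen genes was 0.81, 1.45 and 1.03, beside 0.02, -0.01 and -0.10 over all genes, and 97, 92 and 83 of the 100 had a ratio above 0. In these lists most of the chosen genes were thus higher with ultrasound in the left-out libraries, but only 47 to 62 in 100 without overlap. The chosen lists held 48, 33 and 32 of the 75 members. Every member lies without overlap in any left-out libraries by the rule itself, so nothing about the 75 is read from this.

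**Figure D5:**
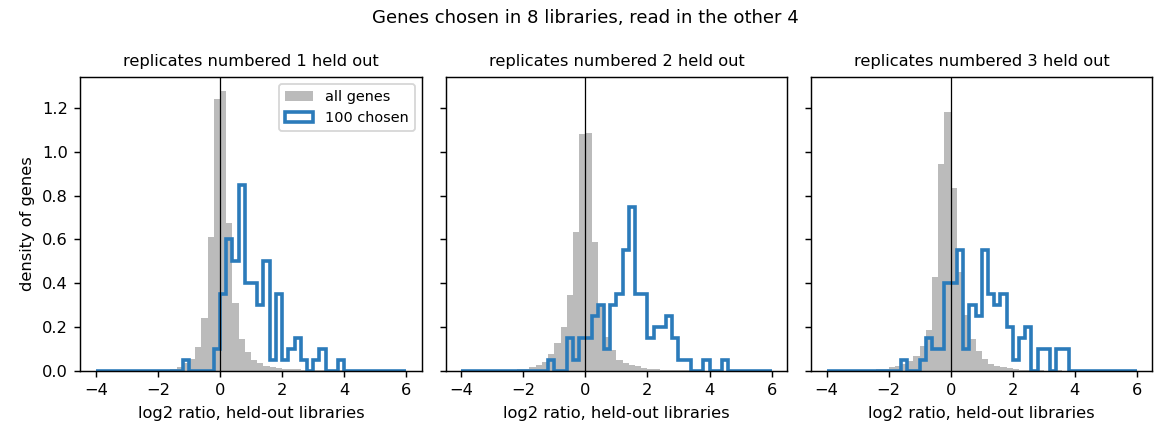
Distribution of the log2 ratio (ultrasound against other libraries) in the 4 held-out libraries, as density of genes, for the 100 genes chosen in the other 8 libraries (outline) and all genes with a mean of at least 1 CPM (filled), with values beyond the axis placed in its end bins. The medians of the chosen genes were 0.81, 1.45 and 1.03, and those of all genes were near 0.

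As a description of the contrast that chose the genes, edgeR with 6 libraries against 6 called 39 of 22157 genes (0.176%), of which 30 were higher with ultrasound. Members made up 24 of the 30, a number that the selection largely set and that was 0 without each D replicate in turn, 1 with the replicate block and 58 with DESeq2. The other 6 failed the rule because an ultrasound library was below a C library. They included the receptor kinases Solyc01g107670.2.1 and HERK 1 (Solyc05g054860.1.1), a relative of THESEUS 1, and growth-regulating factor 8 (Solyc04g077510.4.1). HERK 1 missed with 20.0 CPM in US replicate 1 against 20.4 CPM in C replicate 1. Some genes with larger ratios than most members also missed by 1 library. EXORDIUM-like 3 (Solyc10g074540.1.1), a cell surface protein of a growth-related family, had a log2 ratio of 3.25, with 20.5 CPM in US + D replicate 3 against 21.5 CPM in C replicate 2. A xyloglucan endotransglycosylase (Solyc09g092520.3.1), for an enzyme that cuts and rejoins wall xyloglucan, had a log2 ratio of 3.01, with 13.6 CPM in US replicate 1 against 15.5 CPM in C replicate 2. In all, 328 genes failed because of a single library. Among the genes of the lists formed by description, which also came from genes the study listed as changed, edgeR called 1 of 3 tested expansins, 1 of 3 small auxin-up RNAs, 3 of 36 receptor kinases and 1 of 19 F-box genes higher with ultrasound, 1 of 6 ethylene response factors lower, and no gene of the other 17 lists. A list without a call was not shown to be unchanged. At an unadjusted edgeR p under 0.05, 9 of 10 proteinase inhibitors and 3 of 3 EXORDIUM genes were higher and 0 lower. Other lists without a call went both ways. Of 7 glycosyltransferases 2 were higher and 3 lower, and of 97 genes described by the word unknown 28 were higher and 36 lower. As the lists came from genes already listed as changed, nothing is read from these counts. Over all genes, 1146 of 22157 were higher and 917 lower at that threshold.

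At the edge of the rule, Solyc02g038800.1.1 was just inside, with 17.553 CPM in US + D replicate 3 against 17.552 CPM in C replicate 1, and so was Solyc07g047950.1.1 with 66.4 against 66.3 CPM. Just outside were Solyc08g007310.3.1 (15.53 against 15.57 CPM) and Solyc02g083850.3.1 (2.317 against 2.323 CPM). By the minimum, Solyc05g012540.4.1 was inside with a mean of 1.43 CPM, and Solyc02g091870.3.1 was outside with 0.939 CPM. Solyc02g091870.3.1 was 1 of 6 genes that did not overlap but had a mean under 1 CPM. Membership at the gap thus turned on differences smaller than counting error.

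In the genome the members were spread over 11 of the 12 chromosomes. Chromosome 2 held 14 of them, 18.7% of the members beside 10.7% of the genes with a mean of at least 1 CPM, and chromosome 11 held none beside 6.70% of those genes. Their median span was 2875 bases, against 3805 bases for all those genes. Among the members, 12 had another member within 5 genes. OBERON and ETAG-A3 are next to each other on chromosome 4, on the same strand and 791 bases apart, and their log2 ratios were 2.65 and 1.86. The tetratricopeptide repeat gene and PEX14 on chromosome 3 are 2679 bases apart, with 1.73 and 1.02, and the octicosapeptide/Phox/Bem1p gene Solyc02g091670.1.1 and the beta-D-xylosidase gene on chromosome 2 are 5154 bases apart, with 0.89 and 0.44. The other pairs, each 3 genes apart, were CNGC15 with Solyc09g007810.4.1, the ERD family gene with the RbcX chaperonin-like gene Solyc02g081060.4.1, and LOB domain-containing 38 with Solyc02g092580.3.1. Whether reads running on from one gene into the next took part in the neighbouring pairs was not tested.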

How the data were processed

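Leaf mRNA-seq counts of 12 libraries (C, US, D and US + D, 3 each) were used. The authors deposited raw counts, whole numbers per ITAG4.0 gene, obtained by poly-A enrichment and paired-end sequencing, trimming with fastp, alignment to SL4.0 with Hisat2 and counting with FeatureCounts; whether counting used strand and how multi-mapping reads were treated is not given in the sources used here. The counted span is the whole gene model. CPM was computed from the column totals (33640280 to 106829565). The members, the groups of genes and the lists were chosen with earlier results of these data known, and the descriptions came from the study's lists of differentially expressed and differentially methylated genes, those of the members all from the former.

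D vs. C, US + D vs. US and the interaction were fitted with edgeR 4.0.16 in R 4.3.3 (filterByExpr, TMM scaling, quasi-likelihood test, 1 mean per group, all 12 libraries, Benjamini-Hochberg adjustment over 22157 genes), and the fit was tested on simulated data. SE is the log2 fold change divided by the square root of F. Each p-value sets a difference between group means against the spread between these libraries. Same-numbered libraries of C and D deviated together from their group means in all 3 pairs (r from 0.142 to 0.260), so that D vs. C is also given with the replicate block; the labels name no shared batch or day. Alternatives were DESeq2 1.42.0, RLE scaling, no filter, at least 10 counts in at least 6 libraries, thinning to the smallest total, a replicate block, the adjusted p alone, and each library left out. Tables and plots used Python 3.11.15 with pandas 2.3.3, numpy 2.4.6, scipy 1.17.1 and matplotlib 3.10.9. Chosen after seeing the data were the rescaled held-out check and the rescaled and leave-one-out ratios of single members. Named genes were ranks 1 to 20, the 10 members with the highest mean CPM, members with a member within 5 genes, members of the lists by description, members called in a contrast, and the edge of the list; other names were chosen after their values were seen. A promoter motif search was not run, and no sequences were used here.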

Additional observations from a re-analysis of the deposited data

Results flagged for a closer look

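The interaction of ultrasound and drought differed from 0 in 1 member by 1 of the methods used, DESeq2, which called 106 of all 27483 tested genes (0.386%). In Solyc02g081030.4.1, the ERD family gene on chromosome 2, the ultrasound difference was larger with drought than without it by 0.92 on the log2 scale (DESeq2, SE 0.23, adjusted p = 0.0247), and edgeR gave 0.91 with an adjusted p of 0.546. The log2 ratio was above 0 in both contrasts, 0.28 for US vs. C and 1.25 for US + D vs. D, and both were bounded by the rule that chose the gene. Over the edgeR and DESeq2 settings the interaction stayed between 0.76 and 1.03.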

How the results depend on the processing

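The number of genes that met the rule was 109 with TMM-scaled CPM, 110 with RLE-scaled CPM, 75 in libraries thinned to the smallest total, 81 without a minimum mean and 69 with a minimum of 5 CPM, and these lists' top 100 held 69, 67, 71, 75 and 69 of the 75 members. With 1 library left out, 78 to 156 genes qualified and 54 to 75 members stayed in the top 100; the count was over 1.5 times the 75 when C replicate 1, 2 or 3 (124, 138 and 156) or US + D replicate 2 (122) was left out. The held-out share (median 57%) was 60%, 60% and 59% with TMM, RLE and thinned values. No member was called for D vs. C or US + D vs. US under any setting run, nor for the interaction except 1 with DESeq2. Calls were rare among all genes as well. Over its settings edgeR called 0 to 3 genes for D vs. C and none for US + D vs. US or the interaction. DESeq2 called 426, 11 and 106 of 27483 genes. For ultrasound, 6 libraries against 6, the 39 calls became 492 with DESeq2 and 1 to 73 with a library left out: 4, 6 and 73 without C replicates 1, 2 and 3, 3 and 5 without US replicates 2 and 3, 1 without each D replicate in turn, and 5 and 17 without US + D replicates 1 and 2. The causes were not tested. With the replicate number as a block there were 3 calls; over all groups, 9 of 18 same-numbered pairs had r over 0.1 (r from -0.40 to 0.75, 7 of 12 libraries closest to their own number), and between US and US + D none had, so outside D vs. C the numbers were not taken as pairs. The block called no member in D vs. C, US + D vs. US or the interaction. Of 1200 values of the members' log2 ratios over 16 alternatives, whose sign the rule largely fixes, 4 moved by more than the replicate SD, all with a pseudocount of 1 CPM in weakly expressed genes. Depth limits the 6 members under 5 CPM and the 38 whose gap was within counting error.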
